A study of Mus musculus with 4 samples.

Results

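Peaks of 3 m6A reader proteins that lie in annotated pseudogenes were examined in mouse bone marrow cells. The deposited lists held 19866 peaks, and 276 of them met the rule used here. Their summit lay in no protein-coding gene and in an exon of a gene that GENCODE M21 (build GRCm38) annotates as a pseudogene. The IGF2BP2 list held 93 such peaks of 7069 (1.32%, 95% exact binomial interval 1.06 to 1.61). In the YTHDF2 list it was 48 of 2834 (1.69%, 1.25 to 2.24), and in the YTHDC1 list 135 of 9963 (1.36%, 1.14 to 1.60). The 3 shares had overlapping intervals, which cover counting error only. The 276 peaks fell in 163 of 13525 annotated pseudogenes.

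The study used RIP-seq, in which RNA bound to a protein is immunoprecipitated and sequenced, with 1 library each for IGF2BP2, YTHDF2 and YTHDC1 and 1 input library without antibody. The cells were of the lin- c-Kit+ fraction of bone marrow, a fraction enriched for progenitors, and the labels call them LIC. The series title speaks of leukaemia, and the labels give no genotype, strain or age. All libraries came from cells grown with IL3, IL6 and SCF, crosslinked by 3 exposures to 254 nm light of 120 mJ/cm2 and sonicated. Fragments of 250 to 450 bp were kept after 20 PCR cycles. Of 12 progenitor and myeloid marker genes, 7 had a peak of their own (Kit, Prtn3, Ctsg, Myb, Csf1r, Cebpa and Spi1), and 5 had none (Cd34, Mpo, Elane, Flt3 and Csf3r). By reader, 2, 5 and 6 of the 12 had a peak of IGF2BP2, YTHDF2 and YTHDC1, beside 12.8%, 7.26% and 19.9% of all protein-coding genes. None of 6 lymphoid and 4 erythroid markers had one, and among so few genes a count of 0 is near these shares. In contrast, 2 of 4 stromal and endothelial markers had a peak (Pdgfrb and Pecam1), 1, 1 and 2 of them by reader. A missing peak does not show that a transcript was absent. With 1 library per reader, no difference between readers or between kinds of peak has a replicate check, and no test was made.

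Adenosines of RNA can carry a methyl group, called m6A, and reader proteins bind RNA that has it. IGF2BP2 is known for stabilising mRNA in the cytoplasm, YTHDF2 for promoting mRNA decay, and YTHDC1 for acting in the nucleus. A processed pseudogene is a copy of a spliced mRNA that was reverse-transcribed and inserted elsewhere in the genome, so it usually lacks introns. An unprocessed pseudogene arose by duplication of a gene. Highly expressed housekeeping genes, such as those of ribosomal proteins, often have many processed copies. A sequencing read that fits a gene and its copy equally well cannot be placed by its letters alone.

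The sequences that the results turn on are shown first. A window is the summit base with 50 bases on either side along the spliced pseudogene transcript, cut short where the transcript ends. Its counterpart is the protein-coding gene whose transcript matched it best, with at least 95% identity over at least 80% of the window. All sequences are of GRCm38, from the GENCODE M21 transcripts, and run 5′ to 3′ along the transcript. The largest group matched Hmgb1, which encodes an abundant chromatin protein with an acidic tail. The 4 sequences below show the stretch of Hmgb1 that codes for this tail and the aligned stretch of 3 of its pseudogene copies. The stretch was set by the IGF2BP2 summit of Gm15387, so Hmgb1-ps9 and Hmgb1-ps1 are not centred on their own summits. In the window at its own IGF2BP2 summit, Hmgb1-ps1 matched Hmgb1 with 0 differences over 97.03% of the bases. Capitals mark bases that differ from Hmgb1. The Hmgb1 stretch is chr5:149048754-149048854 on the minus strand and codes for protein. Gm15387 is at chr15:74093703-74093803, minus strand, with 0 differences. Hmgb1-ps9 is at chr13:101038616-101038716, minus strand, with 1 difference, and Hmgb1-ps1 at chr11:41142296-41142394, plus strand, with 7 differences.
Hmgb1: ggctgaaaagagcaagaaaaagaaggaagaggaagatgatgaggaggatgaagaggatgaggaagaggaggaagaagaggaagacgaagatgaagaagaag
Gm15387: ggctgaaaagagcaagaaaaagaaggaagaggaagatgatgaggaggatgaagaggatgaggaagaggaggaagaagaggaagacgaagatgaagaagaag
Hmgb1-ps9: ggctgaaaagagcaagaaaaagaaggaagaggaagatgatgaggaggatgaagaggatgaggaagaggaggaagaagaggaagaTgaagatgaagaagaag
Hmgb1-ps1: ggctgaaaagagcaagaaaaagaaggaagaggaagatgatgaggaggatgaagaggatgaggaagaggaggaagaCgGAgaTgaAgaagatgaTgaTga

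The next 4 sequences are windows of strongly enriched pseudogenes, each identical to its counterpart over all bases shown, so only the pseudogene is printed. Gm5844 (chr3:18009503-18009603, plus) matched Hsp90aa1, a cytosolic chaperone, in the stretch that codes for its charged linker. Rpl3-ps1 (chrX:13203118-13203218, plus) matched Rpl3, a protein of the large ribosomal subunit. Gm6210 (chr6:75296347-75296447, minus) matched Hspa8, the constitutive heat shock protein of the HSP70 family. Gm9531 (chr9:81678339-81678439, plus) matched Set, a histone chaperone, in the stretch that codes for its acidic tail.
Gm5844: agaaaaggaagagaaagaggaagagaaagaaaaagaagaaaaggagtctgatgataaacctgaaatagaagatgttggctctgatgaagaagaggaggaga
Rpl3-ps1: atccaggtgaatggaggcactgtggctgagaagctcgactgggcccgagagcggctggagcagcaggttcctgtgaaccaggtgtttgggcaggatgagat
Gm6210: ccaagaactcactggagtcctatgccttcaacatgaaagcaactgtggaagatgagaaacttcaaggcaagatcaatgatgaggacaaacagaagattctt
Gm9531: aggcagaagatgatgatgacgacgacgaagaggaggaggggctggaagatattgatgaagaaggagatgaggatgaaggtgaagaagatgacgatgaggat

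Most of the annotated kinds were processed copies. Of the 276 peaks, 246 lay in processed pseudogenes and 14 in transcribed processed ones. Unprocessed pseudogenes held 8 peaks and transcribed unprocessed ones 6. The remaining 2 lay in a polymorphic pseudogene, Clec7a, and in one of no stated kind. The kinds of all 13525 annotated pseudogenes are not given here, so these counts have no reference. In 2 cases the summit lay under 2 pseudogenes. The lists give no strand, so a transcript from the opposite strand cannot be told apart from the pseudogene.

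Pseudogene peaks were about as strong as other peaks. Peak strength is given as the authors' fold, which is the pileup (the height of stacked reads at the summit) over the local background. The median fold was 5.86 in pseudogenes and 5.92 in all other peaks of the IGF2BP2 list. It was 5.93 in pseudogenes and 5.62 elsewhere for YTHDF2, and 6.87 in pseudogenes and 6.01 elsewhere for YTHDC1. A fold of at least 5 was reached by 52, 29 and 91 pseudogene peaks of IGF2BP2, YTHDF2 and YTHDC1 (55.9%, 60.4% and 67.4%), beside 58.6%, 54.3% and 64.4% of all peaks of the lists. The upper ends stood further apart. The 95th percentile of fold was 35.2 in pseudogenes and 20.3 elsewhere for IGF2BP2, 19.2 and 14.6 for YTHDF2, and 29.0 and 19.4 for YTHDC1. Many pseudogene peaks rested on few reads: 25, 13 and 28 had a pileup of 3 or less, which is 26.9%, 27.1% and 20.7%, beside 27.8%, 32.8% and 23.4% of all peaks.

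**Figure D1:**
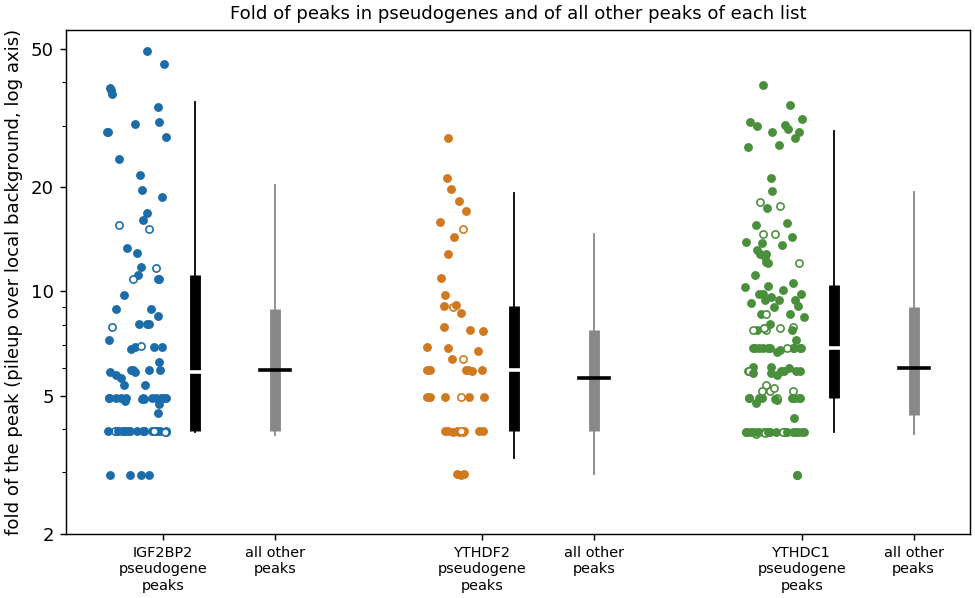
Each point is a peak in a pseudogene, filled where its window matched a protein-coding transcript and open where it did not. Bars beside the points give the 25th to 75th percentile, the lines the 5th to 95th percentile and the tick the median fold, in black for pseudogene peaks and in grey for all other peaks of the same list, on a log axis. In the IGF2BP2, YTHDF2 and YTHDC1 lists the highest pseudogene folds were 49.1, 27.6 and 39.3.

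The readers shared many of the pseudogenes. IGF2BP2 peaks lay in 90 pseudogenes (0.665% of those annotated), YTHDF2 peaks in 43 (0.318%) and YTHDC1 peaks in 127 (0.939%). All 3 lists had a peak in 28 pseudogenes, and 26, 4 and 64 had peaks of IGF2BP2, YTHDF2 or YTHDC1 alone. IGF2BP2 and YTHDC1 alone shared 30, IGF2BP2 and YTHDF2 alone 6, and YTHDF2 and YTHDC1 alone 5. At the level of peaks, 59 of 93 IGF2BP2 peaks in pseudogenes overlapped a peak of another list by at least 1 bp (63.4%, 52.8 to 73.2), beside 46.6% of all IGF2BP2 peaks. For YTHDF2 it was 43 of 48 (89.6%, 77.3 to 96.5), beside 78.6%, and for YTHDC1 59 of 135 (43.7%, 35.2 to 52.5), beside 31.1%. Without a filter on the peaks, the share was thus higher in pseudogenes in each of the 3 lists. Whether the difference exceeds the spread between libraries cannot be tested here.

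The 28 pseudogenes in all 3 lists were all processed copies, transcribed ones included. This is near the share over all 276 pseudogene peaks, of which 246 lay in processed and 14 in transcribed processed pseudogenes. The fold was highest in the IGF2BP2 list for 16 of them, in the YTHDC1 list for 12 and in the YTHDF2 list for 0. It was lowest in the YTHDF2 list for 20. Their median folds in the IGF2BP2, YTHDF2 and YTHDC1 lists were 14.2, 7.81 and 15.0. Depth is unknown and may differ between the lists, so these folds describe the lists and not the binding strength of the proteins. Of these 28, 8 matched Hmgb1, 3 matched Ptma and 2 matched Eef1a1, the elongation factor that brings aminoacyl-tRNA to the ribosome.

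Most pseudogene peaks matched a protein-coding transcript almost letter for letter. For IGF2BP2, 83 of 93 peaks had a counterpart (89.2%, 81.1 to 94.7). The same held for 42 of 48 with YTHDF2 (87.5%, 74.8 to 95.3) and 107 of 135 with YTHDC1 (79.3%, 71.4 to 85.8). Most of the peaks lay in processed copies of mRNA. The match share of pseudogene windows without a peak is not given here, so these shares have no reference. The 232 matched peaks lay in 138 pseudogenes and had 72 counterpart genes, 22 of them with more than 1 pseudogene. The window was identical to the counterpart in 52 of 83, 33 of 42 and 57 of 107 matched peaks (62.7%, 78.6% and 53.3%). Taking the whole part of the peak that lay inside the pseudogene, 120 of 232 were identical to the counterpart. Counting any annotated gene, 162 of 276 windows occurred unchanged elsewhere, and 79 of them in another pseudogene. Reads within such a window have the same letters in both places, and how the authors treated reads that fit several places is not given in the sources used here. The part of such reads in the results was not tested.

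The matched bases were coding. The base aligned with the summit lay in the CDS of the counterpart for 83 of 83, 42 of 42 and 104 of 107 matched peaks, and in a UTR for 3 YTHDC1 peaks. The CDS share of all exonic peaks of coding genes is not given here, so these counts have no reference. The matched stretch crossed an exon junction of the counterpart in 65 of 232 cases (28.02%, 22.3 to 34.3), beside 32.2% of all windows of the same counterpart transcripts. In the Ptma copy Gm9800, the window matched Ptma across more than 1 exon with 0 differences. Ptma encodes prothymosin alpha, a small and very acidic nuclear protein. The Gm9800 window (chr14:8800047-8800147, minus strand), shown to illustrate such a spliced match, corresponds to bases between 86529525 and 86529803 of chromosome 1, with introns left out.
Gm9800: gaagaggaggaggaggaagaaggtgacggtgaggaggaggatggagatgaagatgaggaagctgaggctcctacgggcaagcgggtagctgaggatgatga

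The parent gene usually carried a peak of the same reader. The counterpart had a peak in 78 of 83 IGF2BP2 cases (94.0%, 86.5 to 98.02), beside 12.8% of all protein-coding genes with an IGF2BP2 peak. It was 37 of 42 for YTHDF2 (88.1%, 74.4 to 96.0), beside 7.26% of genes, and 99 of 107 for YTHDC1 (92.5%, 85.8 to 96.7), beside 19.9%. The peak of the counterpart covered the very base aligned with the pseudogene summit in 67 of 83 (80.7%, 70.6 to 88.6), 32 of 42 (76.2%, 60.5 to 87.9) and 84 of 107 cases (78.5%, 69.5 to 85.9). The cases are not independent. They had 46, 25 and 51 counterpart genes, and 16, 6 and 13 cases shared Hmgb1, so the intervals cover counting error only. The shares of cases count a gene once per pseudogene peak, whereas the shares of genes count every annotated gene once. By name, 21 pseudogenes had a symbol that gives a parent, such as Rpl3-ps1. Those parents had a peak of the same reader in 9 of 9, 8 of 10 and 19 of 20 cases, and the named parent was among the sequence counterparts in 32 of 32 cases that had one.

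The pseudogene peak was mostly the smaller of the pair. Over the 67 IGF2BP2 pairs, the median fold was 6.24 in the pseudogene and 17.8 at the counterpart site. Over the 32 YTHDF2 pairs it was 7.26 in the pseudogene and 10.7 at the counterpart, and over the 84 YTHDC1 pairs 8.51 and 16.4. The fold was lower in the pseudogene in 64 of 67, 28 of 32 and 70 of 84 pairs, and the median ratio of pseudogene to counterpart was 0.509, 0.696 and 0.577. The pileups followed the same order, with medians of 6 in the pseudogene and 28 at the counterpart for IGF2BP2, 8 and 17 for YTHDF2, and 9 and 29 for YTHDC1. The background behind the fold was lower in the pseudogenes as well, with medians of 0.0244 in the pseudogene and 0.251 at the counterpart for IGF2BP2, 0.0968 and 0.290 for YTHDF2, and 0.123 and 0.576 for YTHDC1. Spearman's rho between the folds of a pair was 0.536, 0.612 and 0.355. The points of a list share 1 library, and several pseudogenes share a counterpart peak (43, 22 and 40 counterpart peaks in all), so no p is given.

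**Figure D2:**
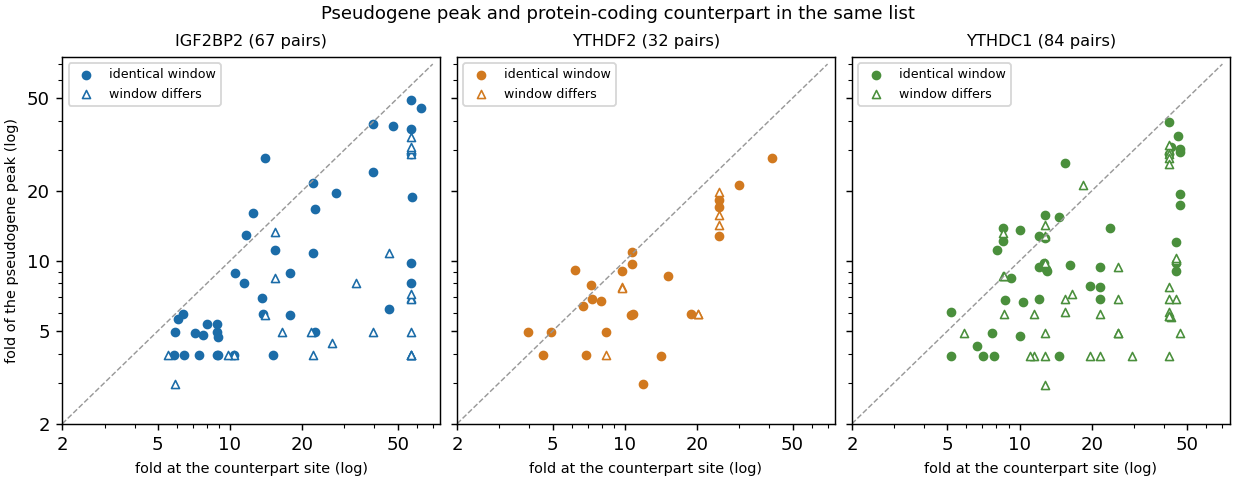
Each point is a pseudogene peak whose matching base in the counterpart lies under a peak of the same reader, with the pseudogene fold on the vertical and the counterpart fold on the horizontal log axis. Filled circles have a window identical to the counterpart, open triangles differ, and the dashed line marks equal folds. Points lie below the line in 64 of 67, 28 of 32 and 70 of 84 pairs.

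Hmgb1 copies were the largest group. Hmgb1 was the counterpart of 35 peaks in 17 pseudogenes, 16 of IGF2BP2, 6 of YTHDF2 and 13 of YTHDC1, and in all 35 the Hmgb1 base lay under a peak of the same reader. The Hmgb1 peak had a fold of 56.7, 24.8 and 41.9 in the 3 lists. Gm15387, whose window is printed above, came closest to it with IGF2BP2 and YTHDC1. In the IGF2BP2, YTHDF2 and YTHDC1 lists, Gm15387 had a fold of 49.1, 18.2 and 39.3. Its pileup was 102, 33 and 103, against 111, 43 and 96 at Hmgb1, so the copy's pileup was higher than the gene's in the YTHDC1 list and lower in the others. Among the 17 pseudogenes the fold ran between 3.93 and 49.1 with IGF2BP2, between 12.8 and 19.7 with YTHDF2 and between 3.93 and 39.3 with YTHDC1.

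Other Hmgb1 copies had peaks of every reader too. Gm21596 had folds of 36.9, 17.0 and 28.8 for IGF2BP2, YTHDF2 and YTHDC1. Hmgb1-ps9, with 1 base changed, had 34.1, 15.8 and 27.7, and Gm13577 had 30.8, 14.3 and 26.0. Hmgb1-ps1, with its changed end, had 30.3, 15.1 and 28.8. Gm2710 had 28.8, 12.8 and 29.9, and AC135509.1 had 28.8, 19.7 and 31.4. All of these were above the 95th percentile of the other peaks in the IGF2BP2 and YTHDC1 lists. Gm2710 and AC135509.1 lie on different chromosomes, and both have 0 differences from the Hmgb1 stretch printed above. They had the same pileup of 63 and the same fold in the IGF2BP2 list, the one such pair among pseudogenes of the same counterpart with a pileup of at least 10.

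**Figure D3:**
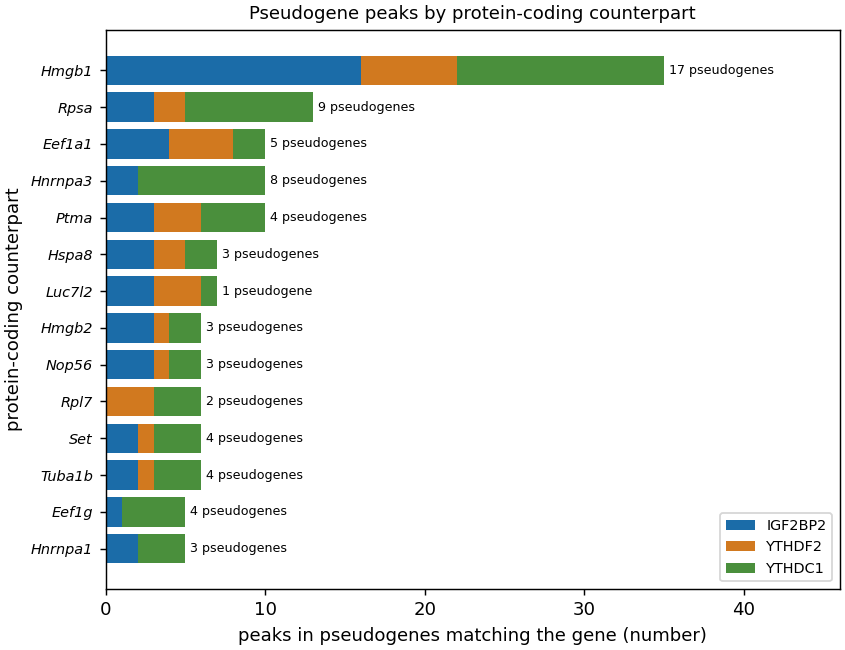
Bars give the number of pseudogene peaks per protein-coding counterpart, stacked by reader, for the 14 counterparts with the most, and the text beside each bar gives the number of pseudogenes. Hmgb1 stands first with 35 peaks in 17 pseudogenes, and Rpsa follows with 13 in 9.

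Chaperone copies held several of the highest folds. Gm5844 had folds of 45.3, 21.2 and 34.5 for IGF2BP2, YTHDF2 and YTHDC1, against 62.4, 30.0 and 45.9 at Hsp90aa1. It was thus below its counterpart in each list, and all 3 windows were identical to Hsp90aa1. Gm6210 had 38.6 for IGF2BP2 and 9.72 for YTHDF2, against 39.6 and 10.7 at Hspa8, and had no YTHDC1 peak. A second Hspa8 copy, Gm15459, had 24.1, 10.9 and 4.29, against 39.6, 10.7 and 6.67 at Hspa8. The heat shock list held 5, 3 and 4 peaks in 6 pseudogenes. Among nuclear chaperones, which held 6, 4 and 7 peaks in 9 pseudogenes, Gm9531 stood above its counterpart. Gm9531 had folds of 27.8, 7.86 and 26.3, against 13.9, 7.22 and 15.4 at Set. Its pileups of 64, 16 and 73 were nevertheless lower than the 69, 30 and 83 at Set, and its background of 1.34, 1.16 and 1.81 was lower than 4.02, 3.29 and 4.44 at Set. The Ptma copy Gm9800 had 11.2, 9.03 and 13.8, against 15.4, 9.73 and 8.56 at Ptma. In the YTHDC1 list, where its fold was higher, its pileup was higher too, at 99 against 92, and its background was lower, at 6.25 against 9.87. The Ptma copies Gm12504, Gm4617 and Gm6291 had YTHDC1 folds of 13.1, 12.1 and 8.59, also above 8.56, but lower pileups of 51, 83 and 9. The highest YTHDC1 peak of Ptma itself had a fold of 14.3.

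Ribosomal protein copies formed the group with the most pseudogenes. They held 13, 12 and 29 peaks of IGF2BP2, YTHDF2 and YTHDC1 in 34 pseudogenes with 19 counterparts, with median folds of 4.93, 4.45 and 6.87, against 5.86, 5.93 and 6.87 over all pseudogene peaks. Of 83 ribosomal protein genes, 35, 29 and 41 had a peak of their own, beside 12.8%, 7.26% and 19.9% of all protein-coding genes. Ribosomal protein copies with at least 95% identity to a coding peak numbered 128, 134 and 114 for IGF2BP2, YTHDF2 and YTHDC1. Of these, 8, 6 and 18 carried a peak, beside 10.9%, 8.26% and 18.2% of such copies of all genes. The share was thus lower than over all genes in each list, while the group had the most such copies of the listed families. Rpl3-ps1 had the highest folds among the ribosomal protein copies. Its folds were 37.9, 27.6 and 30.7, against 47.7, 41.1 and 42.9 at Rpl3, and was the strongest pseudogene in the YTHDF2 list. Rpsa, a protein of the small ribosomal subunit, was the counterpart of 13 peaks in 9 pseudogenes, 3 of IGF2BP2, 2 of YTHDF2 and 8 of YTHDC1. Both YTHDF2 peaks, in Rpsa-ps5 with a fold of 3.92 and in Rpsa-ps2 with 2.97, had an identical window in Rpsa, which had 0 YTHDF2 peaks. Their pileups were 3 and 2. Rpsa-ps12 had an IGF2BP2 peak of fold 21.7, against 22.3 at Rpsa, and no peak of the other readers. Gm12174, a copy of Rpl7 with 4 peaks, had highest folds of 9.12 for YTHDF2 and 11.2 for YTHDC1, against 6.20 and 8.04 at the matching Rpl7 bases. Its other peak in each list was weaker than Rpl7, with 5.93 against 20.2 for YTHDF2 and 5.89 against 11.5 for YTHDC1. Rpl19-ps11, also with 4 peaks, had highest folds of 4.94 and 7.83 in those lists, against 4.94 and 19.6 at Rpl19.

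Copies of RNA-binding and splicing proteins formed another group. The hnRNP copies, whose parents package nascent RNA, held 5, 0 and 11 peaks in 12 pseudogenes. Of 18 hnRNP copies with at least 95% identity to a YTHDF2 peak, 0 carried one, beside 28 of 339 such copies of all genes (8.26%), so a count of 0 is near the share over all genes. Hnrnpa3 was the counterpart of 2 IGF2BP2 and 8 YTHDC1 peaks. Gm12696, in the IGF2BP2 list alone, had a fold of 8.04, against 33.4 at Hnrnpc. Gm10232, in the YTHDC1 list alone, had 13.8, against 23.7 at U2af1, which recognises the 3′ splice site. The copy with the most peaks of all, Gm11889, had 7, 3 each of IGF2BP2 and YTHDF2 and 1 of YTHDC1. All matched Luc7l2, a protein associated with the U1 snRNP. Over the whole peak, the IGF2BP2 peaks differed from Luc7l2 at 0, 5 and 4 bases. The YTHDF2 peaks differed at 0, 0 and 2 bases, and the YTHDC1 peak at 5. The highest folds in Gm11889 were 18.7, 5.93 and 12.8, against 57.2, 18.8 and 12.04 at the matching Luc7l2 bases.

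Copies of tubulin, the protein of microtubules, were strongest with YTHDC1. Gm17383 had folds of 8.07, 8.65 and 30.2 for IGF2BP2, YTHDF2 and YTHDC1, against 11.4, 15.2 and 46.4 at the alpha tubulin site. The order of the readers was thus the same in copy and gene. Gm7172 had 19.4 and Gm3756 had 17.4 in the YTHDC1 list alone, against 46.4 at the tubulin site. Cytoskeletal copies held 3, 1 and 7 peaks in 8 pseudogenes.

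Other groups had few or no pseudogene peaks. Translation factor copies held 8, 4 and 7 peaks, 10 of them matching Eef1a1, with median folds of 4.44, 4.45 and 4.91. The ubiquitin and proteasome list held 1 peak per reader, all in 1 pseudogene. Glycolysis, histone, DNA replication and mitochondrial energy genes had 0 pseudogene peaks of any reader. For the last 3 of these groups there were few copies that could carry one, at most 4 per list with at least 95% identity to a coding peak. For glycolysis there were 17, 13 and 19 such copies, 0 of them with a peak, beside 10.9%, 8.26% and 18.2% of such copies of all genes in the IGF2BP2, YTHDF2 and YTHDC1 lists. Pkm, the pyruvate kinase of most tissues, had 4 IGF2BP2 peaks with a pseudogene copy, with a top fold of 36.7. Over these peaks together, 5 copies had at least 95% identity, 1 of them identical, and 0 carried an IGF2BP2 peak. Which of the copies match the peak with the top fold is not given here. Pkm was chosen after its values were seen.

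In the IGF2BP2, YTHDF2 and YTHDC1 lists, peaks of pseudogenes in 1 list alone had median folds of 4.93, 3.46 and 5.89, against 6.93, 6.38 and 7.75 for pseudogenes in more than 1 list. The 4 with YTHDF2 alone were Gm9512 with a fold of 4.94, Gm15429 with 3.96, Gm48909 with 2.97 and Gm10051 with 2.94, matching Eef1a1, Aph1a, Rpl11 and Rpl28. After Rpsa-ps12 and Gm12696, the highest with IGF2BP2 alone were Clec7a with 7.89, Rpl6l with 6.90 and Gm27219 with 6.24. Clec7a, a receptor for fungal glucans on myeloid cells, is annotated as a polymorphic pseudogene, and its window matched no other coding transcript. After the tubulin copies, the highest with YTHDC1 alone were Gm11824 with 14.3, Gm10232 as above and Rpsa-ps1 with 12.8. Gm11824 and Rpsa-ps1 both matched Rpsa, where the fold was 12.7. In 18 matched peaks the counterpart had no peak of the reader. The highest of these was Rpl6l, and none of them exceeded a pileup of 6.

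Looking from the coding genes to their copies showed which copies carried a peak. This comparison was added after the data were seen. Of 4111 IGF2BP2 peaks in exons of protein-coding genes, 365 had at least 1 pseudogene copy with 90% identity or more, and 45 of these (12.3%) had a peak on a copy. For YTHDF2 it was 25 of 209 (11.96%) and for YTHDC1 45 of 255 (17.6%). Among identical copies, 30 of 92 carried an IGF2BP2 peak (32.6%, 23.2 to 43.2), against 11 of 516 with 90 to under 95% identity (2.13%, 1.07 to 3.78). For YTHDF2 it was 22 of 66 identical copies (33.3%), against 5 of 378 (1.32%), and for YTHDC1 33 of 68 (48.5%), against 17 of 418 (4.07%). The copies of 1 gene share their coding peak, so they are not independent.

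Identical copies of the highest coding peaks mostly carried a peak themselves. With a pileup of 20 or more at the coding peak, 13 of 14 identical copies had an IGF2BP2 peak, 9 of 11 a YTHDF2 peak and 16 of 17 a YTHDC1 peak. With a pileup under 5, it was 1 of 24, 3 of 14 and 2 of 11. The classes between did not follow one order in every list: with a pileup of 5 to 9 it was 9 of 38, 4 of 30 and 2 of 22, and with 10 to 19 it was 7 of 16, 6 of 11 and 13 of 18. Hmgb1 had 9 copies of at least 95% identity for IGF2BP2, all 9 with a peak. Rpl7a, whose coding peak had a pileup of 3, had 26 copies, 8 of them identical, and 0 with an IGF2BP2 peak. Hmgb1 and Rpl7a were chosen here after their values were seen.

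**Figure D4:**
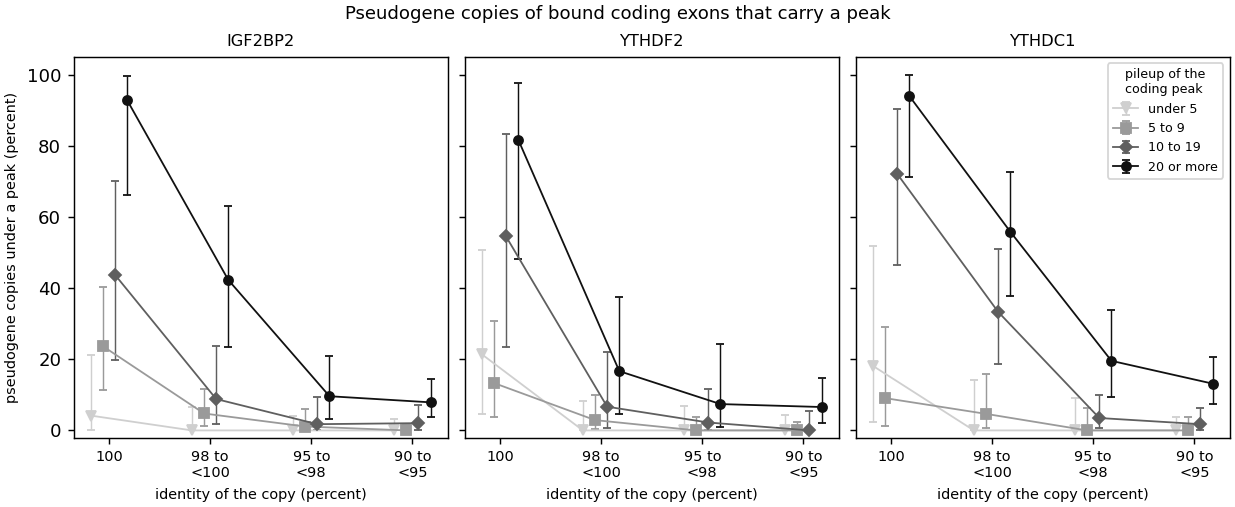
Points give the percent of pseudogene copies that lie under a peak of the same reader, by identity of the copy to the coding stretch (horizontal axis, highest on the left) and by pileup of the coding peak (grey shades and symbols). Error bars are exact binomial 95% intervals and cover counting error only. Identical copies of coding peaks with a pileup of 20 or more reached 13 of 14, 9 of 11 and 16 of 17.

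The peaks without a coding match were few, and most were near misses. They numbered 10, 6 and 28 for IGF2BP2, YTHDF2 and YTHDC1. Of the 44, 35 aligned more weakly to a coding transcript and 9 aligned to none. Gm9403 had the highest fold, 18.1 for YTHDC1 and 6.93 for IGF2BP2, and its YTHDC1 window differed from Hsp90ab1, another cytosolic chaperone, at 8 bases. Hmgb1-ps4 had 15.2, 6.38 and 14.6 and aligned to Hmgb1 with gaps. The other named ones had YTHDC1 peaks, with folds of 8.58 in Gm21769 and 7.84 in Gm10060, both closest to Nsfl1c. Anp32b-ps1 had 7.90 and was closest to Anp32b, Gm14037 had 6.87 and was closest to Ptma, and Gm7972 had 7.73 and aligned to none. Both windows of Gm9403 and Hsp90ab1 are shown, with capitals where they differ. Gm9403 is at chr3:132843075-132843175, plus strand. The Hsp90ab1 stretch lies between 45570469 and 45570668 of chromosome 17, minus strand, with an intron left out.
Gm9403: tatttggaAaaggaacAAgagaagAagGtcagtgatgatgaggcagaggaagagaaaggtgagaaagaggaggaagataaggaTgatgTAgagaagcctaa
Hsp90ab1: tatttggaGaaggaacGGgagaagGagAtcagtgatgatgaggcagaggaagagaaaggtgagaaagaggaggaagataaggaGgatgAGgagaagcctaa

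Ppp4r1l-ps and Gm37348 aligned to no coding transcript in their own direction. Ppp4r1l-ps, a transcribed unprocessed pseudogene, had an IGF2BP2 peak of fold 15.5 and YTHDC1 peaks of 17.6 and 12.02 in a purine-rich stretch. The window of its highest peak is printed below and lies at chr2:173586311-173586411, minus strand. Gm37348 had 10.8 for IGF2BP2 and 5.93 for YTHDF2. When the opposite strand was searched too, an alternative added after the data were seen, Gm37348 matched Hspa8 with 2 differences among the aligned bases at the IGF2BP2 summit and 0 at the YTHDF2 summit. The fold at the Hspa8 site was 39.6 and 10.7. One more peak, in Gm16216 with a YTHDC1 fold of 5.36, then matched Hnrnpa1 with 0 differences among the aligned bases. Gm37348 is at chr3:41976386-41976486, plus strand, and its letters are those of the annotated strand.
Ppp4r1l-ps: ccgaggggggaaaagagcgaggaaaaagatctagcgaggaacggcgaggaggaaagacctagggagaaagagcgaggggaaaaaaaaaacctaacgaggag
Gm37348: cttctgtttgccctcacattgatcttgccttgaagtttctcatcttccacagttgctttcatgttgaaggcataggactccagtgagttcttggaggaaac

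Duplicated genes gave a few peaks of another kind. 5830417I10Rik, an unprocessed pseudogene, had 4 peaks and matched Gon4l. Its highest folds were 12.9 for IGF2BP2 and 13.5 for YTHDC1, against 11.7 and 10.0 at Gon4l, and a second IGF2BP2 peak in it had 4.82, against 7.72 at Gon4l. Gm8995 and Gm1966 matched Gvin1 at 96.0% and 95.05% identity and had IGF2BP2 folds of 5.92 and 5.74, whereas Gvin1 had no IGF2BP2 peak. They were chosen after their values were seen.

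The windows were rich in purines. The median share of A or G was 65.8%, 62.4% and 65.3% in the full windows of IGF2BP2, YTHDF2 and YTHDC1, against 55.4%, 55.4% and 54.5% over all windows of the same pseudogene transcripts. At least 70% A or G was found in 43.0%, 31.0% and 36.2% of windows at summits, against 7.44%, 9.41% and 7.44% of all windows. The word GAGGAG stood in 48.8%, 45.2% and 44.0% of summit windows, against 14.1%, 16.4% and 16.4% of all windows, on the sense strand alone. GAAGAA stood in 41.9%, 35.7% and 36.2%, against 19.01%, 19.6% and 16.4%. The 2 words can stand in the same window, as in the Hmgb1 stretch above, whose codons are mostly those of glutamate and aspartate. GGAC, a short word in which m6A is often found, stood in 25.6%, 23.8% and 25.9% of summit windows, against 26.5%, 26.4% and 29.6% of all windows. These shares count overlapping windows and copies of the same gene, and a word in a window is not a bound or methylated site.

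**Figure D5:**
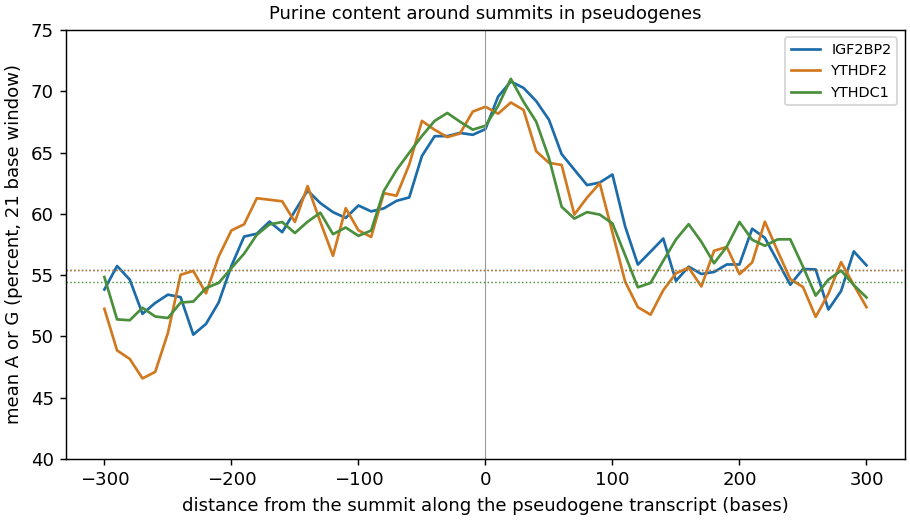
Lines give the mean percent of A or G in 21 base stretches by distance from the summit along the pseudogene transcript, for each reader, and dotted lines the median over all windows of the same transcripts. The mean was highest 20 bases past the summit in each list, at 70.8%, 69.1% and 71.0% in the order of the legend.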

How the data were processed

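The submitters' processing notes name HISAT2, Trim Galore and bcl2fastq 2.17 and the build GRCm38. Neither the peak caller nor the handling of reads that fit several places is named in the labels. For each peak the deposited lists hold a fold (ratio of pileup over local background), its p-value and q-value as −log10, and a score of 10 times the −log10 q. The pileup signal is named per the file headers. All are the authors' values, used within a list to describe, rank or filter peaks. Peaks were called per library. Library totals are not in the files used, so depth is unknown. The input was not analysed here.

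Summits were placed in GENCODE M21 genes, and windows were aligned to transcripts of protein-coding genes with blastn (BLAST+ 2.17.0, word size 11, E-value limit 1e-05, sense strand). When several genes tied, all counted. The background was computed as (pileup + 1) / fold − 1, on the assumption of a pseudocount of 1. Intervals are exact binomial at 95% (scipy 1.17.1). The steps were tested on simulated windows and summits.

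Named pseudogenes are those with the highest fold per reader, in all 3 lists, in 1 list alone or without a coding match, those with the most peaks, and examples per family. One pseudogene that this rule names is not reported here. Members, families and lists were chosen with earlier results of these data known. The comparison from coding peaks to copies, the base composition and the search of both strands were added after the data were seen.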

Additional observations from a re-analysis of the deposited data

How the results depend on the processing

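Of 132 alternative values of the 15 counts and shares, 110 stayed within 1.5 times the count or within the interval of the share, and 22 did not. The filters on fold and on pileup (each at least 5) kept the same 172 pseudogene peaks and gave the same values. They left 52 IGF2BP2 and 29 YTHDF2 peaks. Overlap with another list became 96.6% for YTHDF2 and 35.2% for YTHDC1. Over all peaks of these lists without a filter it was 78.6% and 31.1%. The share over all peaks passing the same filters is not given here, so the filtered values have no matching reference. With the filters, the counterpart had a peak in 100% of YTHDF2 and 97.2% of YTHDC1 cases. It had one at the matching base in 89.1%, 96% and 88.9% for IGF2BP2, YTHDF2 and YTHDC1. At a minimum identity of 90%, 91.1% of YTHDC1 peaks had a counterpart. At 99% it was 75.3% for IGF2BP2 and 60% for YTHDC1. With the counterpart taken by name, 100% of IGF2BP2 parents had a peak (9 of 9). The 22 values that moved came from a filter on the peaks, another identity limit or the counterpart taken by name. No paired analysis was possible because each reader has 1 library and no test was made. Unknown depth limits any comparison between lists. A peak missing from a list may be absent or undetected, and the data cannot tell which.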
